A study of Mus musculus with 7 samples.

Results

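The chromosomal passenger complex was described here across 7 arrays of mouse prostate tumours, through every probe whose platform gene symbol was one of its 4 subunits, Aurkb, Birc5, Cdca8 and Incenp. The 4 genes, of 19026 named on the array, had 7 of the 45128 probes in the deposited table. All 7 passed the filter on dim probes, as did 21249 probes in all. Tumours of the NPK mouse model were grown as allografts in athymic nude NU/J mice, hosts with few mature T cells, and both groups share that graft and host. The 4 samples RAPPD 1 to 4 came from mice given RAPPD and the 3 samples vehicle 1 to 3 from mice given vehicle, with a dose on each of 5 days and harvest on the last. In published work on this model NPK tumours arise in the prostate epithelium of mice with an inducible Cre, and RAPPD is rapamycin, an mTOR inhibitor, combined with a MEK inhibitor. The labels spell out neither name. They also give no age and do not say whether the grafts came from 1 donor tumour or several, so each p-value rests on the spread among these samples alone, which may be partly technical.

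The complex is the mobile regulator of mitosis. Incenp is the scaffold: its N-terminal end holds Birc5 (survivin) and Cdca8 (borealin), which bring the complex to the inner centromere, and its C-terminal end binds and activates the kinase Aurkb. There the kinase destabilises faulty attachments between kinetochores and spindle fibres, and in anaphase the complex moves to the spindle midzone, where it acts in cytokinesis. The subunits are made mainly late in the cell cycle, and a bulk tumour sample holds cycling and resting cells together, so fewer cycling cells and less RNA per cycling cell cannot be told apart in any value below.

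The promoter sequences are shown because control elements of late cell cycle genes are known, among them the cell cycle homology region and the CCAAT box bound by NF-Y. The RefSeq promoter table (build GRCm38.p6) held 2 of the 4 members, Cdca8 and Birc5. It was searched on both strands for the homology region (the letters TTTGAA and also TTCGAA), for CCAAT and for E2F sites, with TTCCCGC as the first spelling, TTCGCGC as another, TTGCCGC as a further spelling and TTGGCGC as the last, in the 250 bases before each annotated start. These bases follow, 5′ to 3′ on the gene's own strand, with matches in capitals. Those of Cdca8 lie at chr4:124936918-124937167 (minus strand) and those of Birc5 at chr11:117848987-117849236 (plus strand).
Cdca8: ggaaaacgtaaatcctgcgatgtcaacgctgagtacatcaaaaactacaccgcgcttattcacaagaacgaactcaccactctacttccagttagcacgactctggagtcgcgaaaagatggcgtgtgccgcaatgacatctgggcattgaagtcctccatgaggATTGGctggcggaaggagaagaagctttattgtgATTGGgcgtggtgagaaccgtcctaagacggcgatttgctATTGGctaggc
Birc5: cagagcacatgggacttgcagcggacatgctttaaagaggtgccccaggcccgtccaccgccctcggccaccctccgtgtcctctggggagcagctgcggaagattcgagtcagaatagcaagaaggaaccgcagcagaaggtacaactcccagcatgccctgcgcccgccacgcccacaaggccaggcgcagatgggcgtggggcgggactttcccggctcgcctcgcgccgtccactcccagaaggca

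The Cdca8 window held 3 CCAAT matches, all on the opposite strand, at positions -85, -51 and -11 from the start, and no match to the other letters. Of 32851 promoters in the table, 17.1% held a homology region match, 33.8% a CCAAT match and 7.89% an E2F match in the same window, and 2.79% held at least 3 CCAAT matches. None of these letters occurred in the Birc5 window, and neither window says anything about sites elsewhere in these genes. A match is a string of letters, not a measured binding site.

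All 7 probes of the complex fell in RAPPD tumours, against 11% of the 21249 tested probes called lower at an adjusted p under 0.05 (limma, Benjamini-Hochberg over all tested probes). On each of the 7 the 4 RAPPD arrays lay below the 3 vehicle arrays, as on 16.2% of tested probes. The differences of Aurkb, Birc5 and Cdca8 lay between -4.54 and -4.18 on the log2 scale, and Incenp fell by 2.21. The values below are deposited background-subtracted intensities on a linear scale, from which fold changes were then computed on log2(corrected intensity + 16). A probe counts as detected on an array when it exceeds a limit of 13.8 to 15.4 intensity units, set per array. Levels of different probes do not tell which subunit is more abundant. They are set against each other only to read changes between groups and arrays.

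The kinase subunit Aurkb is the enzyme of the complex. Its single probe (ILMN_1239230) read 10.8, 6.80, 10.1 and 18.4 in RAPPD 1 to 4, against 485, 526 and 561 in vehicle 1 to 3. Of the RAPPD arrays only RAPPD 4 exceeded the detection limit, while the vehicle arrays all did and lay close together. The difference was -4.18 ± 0.17 (SE, n = 4 and 3), an 18.1-fold fall (limma adjusted p = 2.15e-06). Its size depends on the floor: at a stricter limit (the upper 0.01 tail of the background) the probe was detected on 0 RAPPD arrays and was at least 14.3-fold lower, and with a background offset of 50 the difference was -3.16. RefSeq lists a pseudogene of Aurkb, Gm5307, on another chromosome. Whether the probe also matches it was not tested.

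Birc5 encodes survivin, the small subunit that reads a phosphorylated residue of histone H3 at the centromere and also belongs to the inhibitor of apoptosis family. Its brightest probe (ILMN_2632712) read 160.4, 147, 181 and 164 in RAPPD 1 to 4, against 4154, 4433 and 2795 in vehicle 1 to 3. The RAPPD arrays lay within a narrow band, all detected, and vehicle 3 was the lowest of its group, yet far above them. The fall was 21.3-fold (-4.41 ± 0.20 on the log2 scale, limma adjusted p = 3.11e-06), and the mean RAPPD intensity was 4.30% of the vehicle mean.

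A further probe of Birc5 (ILMN_2681241) read 38.1, 57.7, 67.3 and 99.1 in RAPPD 1 to 4, against 1151, 2182 and 1615 in vehicle 1 to 3. The last (ILMN_2603699) read 67.9, 31.0, 62.05 and 50.6 in RAPPD 1 to 4, against 1395, 2019 and 1309 in vehicle 1 to 3. Both were detected on all 7 arrays, with more spread among RAPPD arrays than the brightest probe. Their differences, -4.36 ± 0.29 and -4.54 ± 0.24 (SE, n = 4 and 3), lay within the 95% interval of the brightest probe, -4.85 to -3.97. RefSeq lists 2 transcripts of Birc5. The platform assigns the 3 probes to the same one, so transcript forms were not separated.

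Cdca8 encodes borealin, which links survivin to the scaffold and helps the complex bind nucleosomes. Its brighter probe (ILMN_2543393) read 74.1, 64.2, 72.8 and 77.7 in RAPPD 1 to 4, against 2146, 2669 and 1423 in vehicle 1 to 3. The RAPPD arrays were all detected and nearly equal, and among vehicle arrays vehicle 3 was again the lowest. The difference was -4.54 ± 0.22 (SE, n = 4 and 3), a 23.3-fold fall (limma adjusted p = 3.73e-06), the 11th lowest difference of the 21249 tested probes.

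The dimmer probe of Cdca8 (ILMN_2588362) read 29.98, 13.2, 19.9 and 46.2 in RAPPD 1 to 4, against 853, 1009 and 534 in vehicle 1 to 3. It was detected on 3 of the 4 RAPPD arrays, RAPPD 2 being the exception, and the groups again did not overlap. Its difference was -4.21 ± 0.29 (SE, n = 4 and 3; limma adjusted p = 2.22e-05), and its mean RAPPD intensity was 3.42% of the vehicle mean, beside 3.47% for the brighter probe.

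Incenp encodes the scaffold. Its single probe (ILMN_1216213) read 167, 139, 177 and 148 in RAPPD 1 to 4, against 744, 779.7 and 818 in vehicle 1 to 3. It was detected on every array, and the vehicle arrays were closer together than for any other probe of the complex. The difference was -2.21 ± 0.16 (SE, n = 4 and 3), a 4.62-fold fall (limma adjusted p = 2.94e-05, 95% interval -2.57 to -1.85). The mean RAPPD intensity was 20.2% of the vehicle mean, and the difference ranked 246th from the lowest, whereas the other 6 probes ranked between 11th and 35th. RefSeq lists 6 transcripts of Incenp. With a single probe, transcript forms were not separated and no other probe could be set beside this smaller fall.

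**Figure D1:**
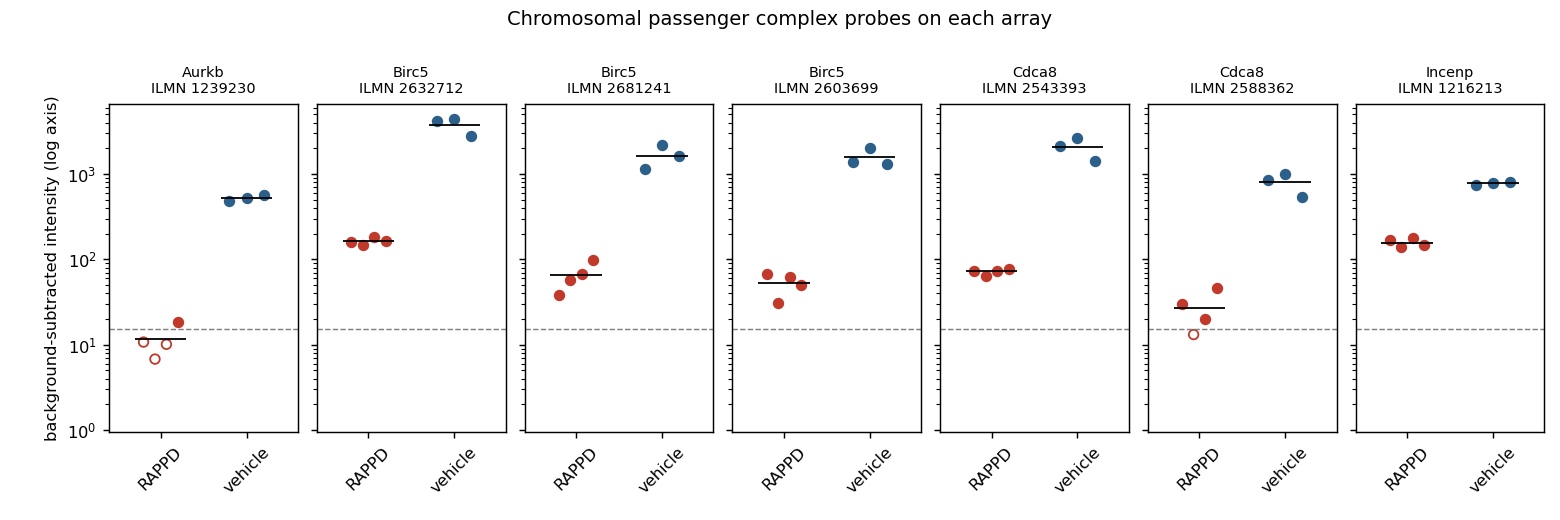
Background-subtracted intensity (log axis) of each probe of the complex, RAPPD arrays (red) left of vehicle arrays (blue). Points are arrays, black lines are group means, open points lie below the detection limit of their array, and the dashed line is the highest of the 7 limits. On each probe the 4 RAPPD arrays lie below the 3 vehicle arrays, and Incenp has the smallest gap.

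Whether the subunits fell by unequal amounts was tested on the log2 difference between the brightest probes of 2 genes on each array, by an exact two-sided permutation test over the 35 ways to assign the 7 samples to the groups, adjusted over 7 comparisons. The smallest p that this allows is 0.0286. The difference of Incenp lay above the mean of those of Aurkb, Birc5 and Cdca8 by 2.17 on the log2 scale (exact permutation p = 0.0286, adjusted p = 0.05). Relative to that mean, Incenp stood between 0.97 and 1.28 in RAPPD tumours and between -1.24 and -0.69 in vehicle tumours, with no overlap. Probes differ in brightness, so only the change of this value between groups was read. Against single subunits the differences were -1.97 for Aurkb, -2.20 for Birc5 and -2.33 for Cdca8 minus Incenp, each with the same p and adjusted p. An adjusted p of 0.05 does not lie under the threshold, and it is the lowest that 4 comparisons at the smallest p could reach among 7.

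Among Aurkb, Birc5 and Cdca8 the differences were smaller and were not called at the offset of 16. Aurkb differed from Birc5 by 0.23 and from Cdca8 by 0.36 (exact permutation, adjusted p = 0.343 and 0.3), and Birc5 differed from Cdca8 by 0.13 (adjusted p = 0.3). The order within this trio depends on how dim intensities are treated. With an offset of 50 Aurkb fell less than Birc5 by 1.01 and less than Cdca8 by 0.93 (exact permutation, adjusted p = 0.0333 each). In the submitters' processed values Birc5 fell more than Cdca8, with a difference of -0.55 (exact permutation, adjusted p = 0.0333). In these processed values, whose slope on log2 intensity was 0.079 between intensities of 15 and 60 and 1.02 above 2000, Aurkb and Incenp differed by only -0.099 (exact permutation, adjusted p = 0.0571). The gap between Birc5 and Incenp remained in both, at -2.16 and -1.95 (exact permutation, adjusted p = 0.0333 each).

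The array positions in the labels put vehicle 1 and vehicle 2 each on a chip of its own and vehicle 3 on the chip of the 4 RAPPD arrays. A fit with chip as a fixed term rests on the shared chip alone, where 1 vehicle array faces the 4 RAPPD arrays. Its calls and p-values measure no spread among vehicle tumours, as the spread in this fit comes from the 4 RAPPD arrays only. All 7 probes were called lower in it, against 4.48% of tested probes. Their differences in that fit were -4.28 for Aurkb, -4.38 to -4.02 for Birc5, -4.04 and -3.69 for Cdca8 and -2.27 for Incenp (limma adjusted p 0.00135 to 0.00573). Vehicle 3 stood below the mean of vehicle 1 and 2 by 0.59 (log2) for the brightest Birc5 probe and by 0.75 for that of Cdca8, whereas it stood above that mean by 0.15 for Aurkb and by 0.091 for Incenp.

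**Figure D2:**
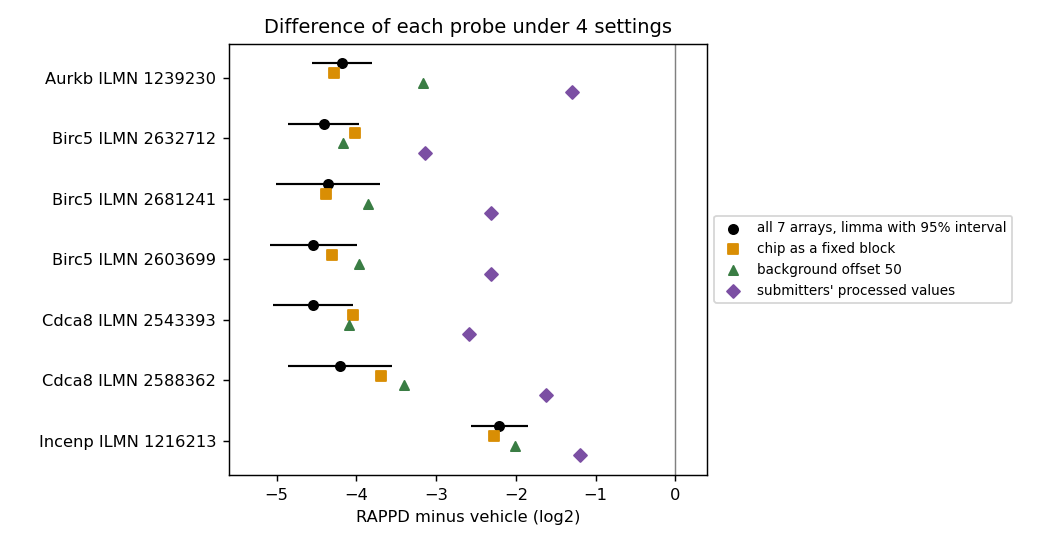
RAPPD minus vehicle on the log2 scale for each probe of the complex, from all 7 arrays with its 95% interval (black), within the shared chip (orange, chip as a fixed block), with a background offset of 50 (green) and from the submitters' processed values (purple). All points lie below 0. The submitters' values are the closest to 0, from -3.14 to -1.19.

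Within groups the members did not all vary together. Deviations of the 7 arrays from their group means correlated at 0.93 between Birc5 and Cdca8 (Pearson's r, brightest probes), and between -0.18 and 0.16 for the other pairs. These 7 points share arrays and normalization, so r is a description. For Birc5 and Cdca8 the largest deviations were those of vehicle 3, -0.39 and -0.50, which lay on another chip than vehicle 1 and vehicle 2. RAPPD 2 had the lowest level of its group for the brightest probe of each of the 4 genes, by 0.13 to 0.18 below the RAPPD mean on the log2 scale. For Aurkb, which was not detected on RAPPD 1, 2 and 3, that rank and the correlations rest on values at background.

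**Figure D3:**
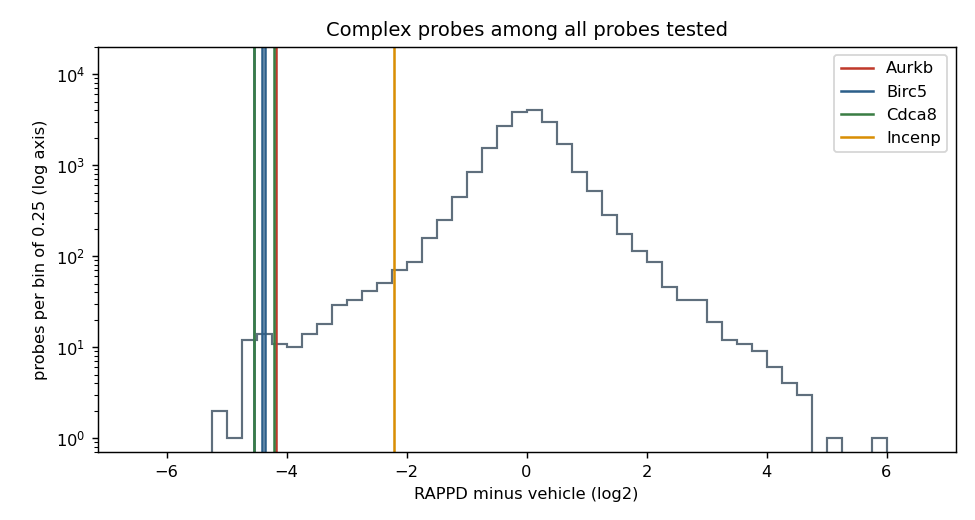
Number of probes (log axis) in each bin of 0.25 of the RAPPD minus vehicle difference (log2), over all 21249 tested probes (outline), with the 7 probes of the complex as vertical lines. The lines of Aurkb, Birc5 and Cdca8 lie near the lower end of the distribution, between -4.54 and -4.18, and that of Incenp at -2.21.

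The genes whose levels followed the complex most closely were found by Pearson's r over the 7 arrays with the mean z-score of the 4 brightest probes, among 10771 named genes. The highest 5 were the histone gene H2ac24, the mitotic kinase Aurka, the separase gene Espl1, which frees sister chromatids, the MAX partner gene Mxd3 and the anaphase-promoting complex activator Cdc20, with r from 0.998 to 0.999. Histone H2A genes are near-identical, so the identity of H2ac24 is uncertain. As r over 7 arrays in separate groups mostly follows the group difference, 4.34% of these genes exceeded 0.95. Deviations from the group means correlated at 0.76 to 0.85 for these 5 genes. The 5 genes were picked by r over the same arrays, so this is not independent support. Among the genes ranked 6 to 15 that correlation ran from 0.19 (Troap) to 0.87 (Tk1).

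Partners of the complex were read from 8 lists with 87 genes, of which 66 were tested, each by its brightest probe. Of these, 31 fell, 2 rose and 33 were not called, against 12.7% lower and 10.6% higher among 11085 genes (limma adjusted p under 0.05 over all tested probes). Within the shared chip, 24 of the 31 were still called. The lists were chosen with earlier results of these data known. The median difference of the 11085 genes was -0.014.

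Factors that place the complex at the inner centromere fell in 6 of 7 tested cases, with a median of -2.71. The shugoshin gene Sgo1, which protects centromeric cohesion, fell by 4.21 ± 0.18 on the log2 scale and was detected on 1 of the 4 RAPPD arrays. Its relative Sgo2a fell by 3.69 ± 0.17 and the mitotic kinase Plk1 fell by 5.00 ± 0.25 (limma adjusted p at most 3.74e-06 for the 3 genes). Haspin, the kinase whose mark on histone H3 survivin binds, fell by 2.71 ± 0.23 (limma adjusted p = 7.69e-05), while Bub1 and Ttk had no probe past the filter.

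Among Aurora kinases and their regulators 4 of 5 fell, with a median of -2.23. The sister kinase Aurka, which acts at spindle poles, fell by 4.33 ± 0.18, and its cofactor gene Bora fell by 2.23 ± 0.23. Cdca2, which targets a phosphatase to chromatin and opposes Aurora B there, fell by 4.34 ± 0.18 with its other probe at -1.28. The limma adjusted p of these 3 was at most 3.03e-04.

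Of 8 tested genes for Aurora B substrates and the structures they form, 7 fell, with a median of -2.97 (-2.72 with genes below the detection limit at their bound). Kif2c, the kinesin that removes faulty attachments, fell by 5.05 ± 0.28, and the kinetochore gene Ndc80 fell by 3.61 ± 0.20. Ska3, of a complex that stabilises attachments, was detected on 0 RAPPD arrays and was at least 5.25-fold lower (limma adjusted p = 1.09e-05). The kinetochore gene Dsn1 was not called (-0.85 ± 0.28, limma adjusted p = 0.0591).

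In the midzone and abscission list 4 of 8 fell and 1 rose, with a median of -1.13. The microtubule bundler gene Prc1 fell by 4.25 ± 0.23, its kinesin partner Kif4 fell by 3.42 ± 0.21 and the cleavage furrow gene Anln fell by 3.70 ± 0.27. Kif23, of the central spindle, was called higher by its brightest probe (1.15 ± 0.31, limma adjusted p = 0.0256), while its other probes lay at -4.72 and -4.32, so its direction is not settled. Within the shared chip it was not called (0.96, limma adjusted p = 0.213).

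The remaining lists moved less. The phosphatase list holds genes of phosphatases that oppose Aurora B and a phosphatase regulator, Bod1. None of its 10 tested genes was called by limma (1 at an unadjusted p under 0.05). Differences ran from -0.39 to 0.41 by their brightest probes. The other tested probes of Ppp2r5d lay between -1.15 and -0.73, and those of Ppp1ca between -0.57 and -0.41. Those of Ppp1cb, Ppp1cc, Ppp2r5c and Ppp2r5e lay between -0.21 and 0.096. With an offset of 50 and in the processed values 1 of the 10 was called lower. In the ubiquitin list 2 of 8 fell, both activators of the anaphase-promoting complex: Cdc20 fell by 4.21 ± 0.19 and Fzr1 fell by 0.77 ± 0.16. Within the shared chip Fzr1 was not called (-0.58, limma adjusted p = 0.127). In the list for the inhibitor of apoptosis family, to which Birc5 also belongs, 1 of 6 tested genes was called. This gene, Birc2, rose by 0.83 ± 0.20 (limma adjusted p = 0.0164) and was not called within the shared chip (0.53, limma adjusted p = 0.251). Xiap, Naip5, Naip2 and Birc6 of the family, and Diablo, listed with it but not a member, were not called and lay between -0.061 and 0.32. The Xiap probe was detected on only 2 RAPPD and 2 vehicle arrays.

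Transcription factors and cofactors of late cell cycle genes fell in 8 of 14 tested cases, with a median of -0.65. Foxm1, an activator of such genes, fell by 2.67 ± 0.19, E2f1 fell by 1.83 ± 0.20 and the pocket protein gene Rbl1 fell by 1.88 ± 0.22, with another Rbl1 probe at -0.16 (limma adjusted p at most 5.16e-04 for the 3 genes). Of the 8 that fell, 4 were also called within the shared chip, and the list had 5 genes called lower without vehicle 1 and likewise 5 without vehicle 2. Among the 31 partner genes that fell, 26 had a promoter in the RefSeq table, and 14 of them held a CCAAT match in the 250 bases before the start, as Cdca8 did (53.8%, beside 37.5% of 27025 genes in the table). A homology region match there was held by 9 of the 26 (34.6%, beside 19.6%) and an E2F match by 5 of the 26 (19.2%, beside 9.01%). The sets are unlike: the 26 are listed partner genes picked by their call, and the 27025 are all genes in the table, tested on the arrays or not. Whether the shares differ was not tested.

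**Figure D4:**
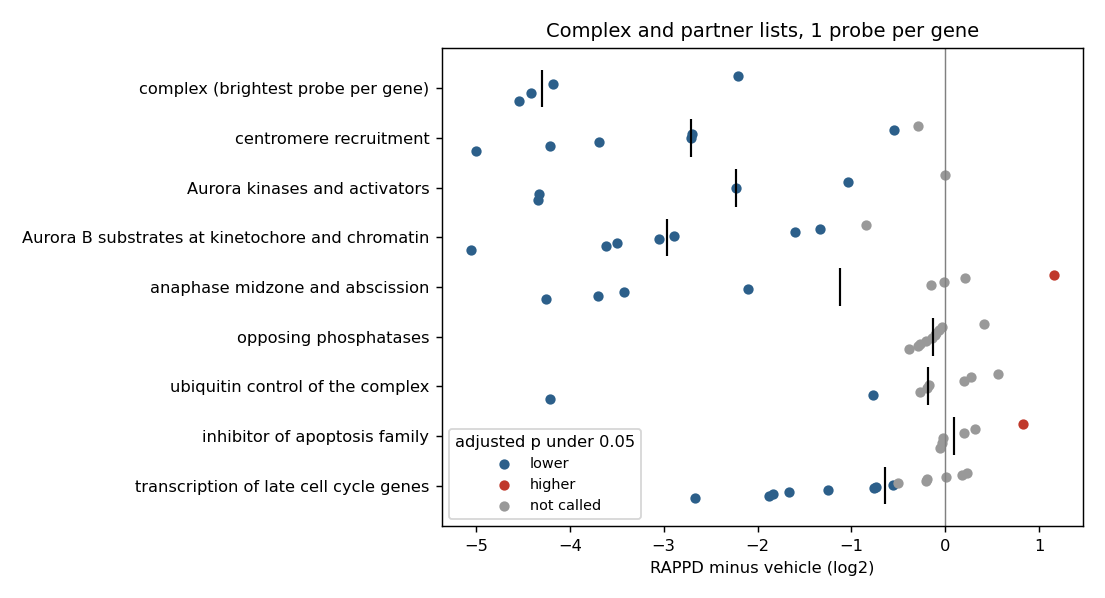
RAPPD minus vehicle (log2) of the 4 subunits, by their brightest probes, and of the tested genes of 8 partner lists. Points are genes, coloured by the limma call at an adjusted p under 0.05, and black bars are medians. Centromere, Aurora and substrate genes lie mostly below 0 with the complex, and genes of the phosphatase list lie around 0 by their brightest probes.

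Some markers of cell types differed between the same arrays, with 8 marker lists read as summed intensities of their tested probes. Cell numbers were not measured. Neutrophil markers rose in 7 of 8 tested cases (sums of 21301 to 65457 in RAPPD and 2855 to 11228 in vehicle tumours) and red blood cell markers in 5 of 5 (75129 to 170352 in RAPPD and 15832 to 32409 in vehicle tumours). Fibroblast markers rose in 2 of 6 cases (24469 to 58509.8 in RAPPD and 17184 to 34897 in vehicle tumours). Luminal epithelial markers fell in 2 of 4 tested cases, Krt8 and Krt18, with sums of 3305 to 10557 in RAPPD and 17308 to 28976.5 in vehicle tumours, while Epcam, Hoxb13 and Tmprss2 had no probe past the filter. Krt19 (-1.81 ± 1.16, groups overlapping) and Cdh1 (0.053 ± 0.32) were not called, and Krt19 lay at 1.22 within the shared chip. The Cdh1 probe was detected on only 2 RAPPD and 2 vehicle arrays, so its difference rests partly on values at background. In the macrophage and endothelial lists 1 of 5 fell in each, Mrc1 and Tek, and no lymphocyte marker had a probe past the filter. Many of these marker calls were lost within the shared chip. There 2 of the 7 neutrophil markers that rose were still called (Clec4e and Retnlg), and 3 of the 5 red blood cell markers. Neither fibroblast marker was called there (limma adjusted p = 0.189 for Col1a2 and 0.645 for Pdgfra), and of the luminal pair Krt8 was called and Krt18 was not (limma adjusted p = 0.0481 and 0.114). Mrc1 and Tek were not called there either (differences of -1.53 and -0.98). Adgre1 of the macrophage list and Lum of the fibroblast list lay at -1.75 and -1.45 there. Over all 7 arrays they lay at -0.89 and -0.40 and were not called. The 2 groups overlapped on Pdgfra, whose other probe lay at 0.087. Skeletal muscle markers were not called by limma (0 of 3, and 0 at an unadjusted p under 0.05), with a sum of 38961 in vehicle 2 and at most 118.7 elsewhere. Vehicle 3 was the lowest of its group for both Cdca8 probes and the brightest Birc5 probe, though not for every Birc5 probe. It was the highest of its group for Aurkb and Incenp. Of the vehicle tumours it had the highest neutrophil, macrophage and fibroblast sums and the lowest red blood cell and luminal sums. The part of these cells in the differences of the complex was not tested. The 7 probes were also called lower without vehicle 2 and without vehicle 3. These fits cannot test it, as the neutrophil, red blood cell and luminal sums did not overlap between the groups.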

How the data were processed

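RNA of 7 tumour samples was measured on Illumina mouse bead arrays, 1 array per sample. The deposited table held 1 intensity per probe and array on a linear scale, background-subtracted as its negative values show. It held no detection p-values or control probes. A second deposited table held the authors' processed values, read as log2-like values whose transform and centring are unknown (array medians 8.021 to 8.025), and served as an alternative. BeadStudio and lumi are named, without roles, in the submitters' processing notes.

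Intensities were corrected with normexp (background mean 0, SD per array from the negative intensities) and given an offset of 16, followed by quantile normalisation between arrays and log2. Probes above the upper 0.05 tail of that background on at least 3 arrays were tested. Between 20323 and 21330 probes were detected per array, and the number of arrays limits the precision. Groups were compared with limma 3.58.1 (R 4.3.3) by probe, two-sided, with Benjamini-Hochberg adjustment and a threshold of 0.05. A probe detected on no array of the lower group has a bound (at least N-fold), taken against the lowest signals detected on those arrays. Of 45128 probes, 34776 had 1 gene symbol in the platform annotation, 18 several and 10334 none. Replicate numbers only name samples. The fit was tested on simulated data.

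Named genes were all member probes, up to 3 genes per direction with the smallest p in each list, and the 5 most alike. Exceptions (Haspin, Dsn1, genes without a call or a probe) were named after their values were seen. Members and lists were chosen with earlier results of these data known. Alternatives were another offset, other normalizations, the processed values, other filters, 1 probe per gene, chip as a fixed or random block (statmod 1.5.0) and leaving out each array. The promoter search was limited to the bases before each start after its results were seen. The bases after the start and the alleles of the tumour model are not reported here.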

Additional observations from a re-analysis of the deposited data

How the results depend on the processing

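Each of the 7 probes kept its direction and its call in every alternative that could be fitted for it (14 to 16 per probe, limma adjusted p at most 0.00573). Their differences reached from -4.79 (Cdca8) to -1.19 (Incenp), with the values closest to 0 in the submitters' processed values, and leaving out 1 array gave -4.26 to -4.13 for Aurkb and -2.26 to -2.15 for Incenp. Requiring detection on all 7 arrays removed Aurkb and the dimmer Cdca8 probe, and 1 probe per gene left 4 member probes, all called lower. At the stricter detection limit the dimmer Cdca8 probe was detected on 2 RAPPD arrays. The difference between Birc5 and Cdca8 turned to -0.078 with offset 50 and to -0.55 in the submitters' processed values, where it was called (exact permutation, adjusted p = 0.0333). In these settings Aurkb fell less than Birc5 by 1.01 and 1.85 and less than Cdca8 by 0.93 and 1.30 (exact permutation, adjusted p = 0.0333), which was not called at the offset of 16, and Aurkb minus Incenp became -0.099 in the processed values (exact permutation, adjusted p = 0.0571). Against Incenp the adjusted p of 0.05 became 0.0333 (exact permutation) in the same settings, though each p already stood at its smallest value, 0.0286. The change came from other comparisons also reaching that smallest value, not from a stronger difference. It covers the mean of the trio, with 1.80 and 1.15 as Incenp minus that mean. It also covers Birc5 minus Incenp at -2.16 and -1.95, Cdca8 minus Incenp at -2.08 and -1.4, and Aurkb minus Incenp at -1.15 with offset 50. Comparisons between members were recomputed in these 2 settings only. Over all probes, 2345 were lower and 2325 higher, against 1457 and 1214 with 1 probe per gene (11085 genes), 951 and 656 with chip as a fixed block, and 1440 to 2360 and 1443 to 2489 when 1 array was left out, with the lowest counts without vehicle 1. Partner genes called higher numbered 2, against 1 without the filter and with chip as a random block, 0 with chip as a fixed block, and 0 to 2 when 1 array was left out, being 0 without vehicle 1 and 1 without vehicle 2, RAPPD 2, RAPPD 3 or RAPPD 4. No paired analysis was possible because the labels give no pairing of RAPPD with vehicle samples. Depth in the form of signal over background limits Aurkb most.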
